A study of Harpegnathos saltator with 12 samples.

Results

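Isolated Kr-h1 peaks are sites of Kr-h1 enrichment that stand far from any other listed site on the chromatin of the ant brain. They were chosen from the deposited peak list by position and width. A peak was a member when it had a neighbour on each side on the same scaffold, when both gaps were over 50000 bp, and when it was under 1500 bp wide. Of 5033 listed peaks, 351 (6.97%) met the rule, on 149 of 393 scaffolds. Only 301 scaffolds held a peak with a neighbour on each side. Members made up 8.85% of the 3965 such peaks under 1500 bp. Fold enrichment, the authors' ratio of ChIP signal over background at a peak, was not used to choose them.

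Kr-h1 binding was mapped by ChIP-seq (sequencing of immunoprecipitated chromatin) in the central brain of Harpegnathos saltator, a ponerine ant, with a custom antibody against Kr-h1. Workers and gamergates each gave 3 ChIP samples and 3 samples of input chromatin (sheared DNA without immunoprecipitation), 12 samples in 4 groups. The labels' protocols describe nests of 25 young (callow) females, 5 days old when moved in with 3 males and without queens or gamergates, and at day 120 those with mature oocytes were scored as gamergates, which are workers that lay eggs. Earlier collections are also mentioned, and the labels do not give the day of each sample, nor how many brains a sample holds. No transgene or mutation is named for any group. The peak list gives 1 position and 1 fold for each peak and no value per sample, so workers were not compared with gamergates, no peak has a replicate error, and read depth is unknown. The members belong to the single deposited list, and which samples or castes it was called from is not stated. Positions follow the scaffold numbering of the list, for which no genome build is named, and no gene was assigned to a peak.

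Kr-h1 (Krüppel homolog 1) is a transcription factor with C2H2 zinc fingers. Juvenile hormone, a developmental hormone of insects that also acts in adults, binds its receptor Met, which then activates the Kr-h1 gene, and in juvenile insects Kr-h1 holds back the genes of metamorphosis. In ChIP-seq, DNA fragments bound by a factor pile up around its contact with DNA. A single contact can give a narrow peak whose width depends on fragment length, while several contacts side by side can give a wider one. In this list width also rose with fold (rank correlation 0.41 across isolated peaks), so width alone does not count contacts. Regulatory elements may lie at promoters or far from any gene, and distance between peaks alone does not tell which.

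The members stood in wide stretches with no other listed peak. The gap to the nearer neighbour had a median of 78703 bp and ran from 50084 to 500955 bp, and the gap to the farther neighbour had a median of 166841 bp and reached 884315 bp. The farther gap was 1.79 times the nearer one at the median, and 1.00 to 13.9 times over all members. The nearer gap was over 100 kb for 116 members, over 200 kb for 28 and over 300 kb for 5. From the end of the preceding peak to the start of the following one, a member's stretch spanned 262 kb at the median. Merged where they overlapped, these stretches covered 90.1 Mb, or 40.1% of the 225 Mb between the first and last peaks of all scaffolds. The members themselves covered 242 kb of it. All these distances follow from the rule in part, and the list does not mark unmappable sequence.

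The median listed fold of isolated peaks was close to that of other peaks. The median fold was 4.76, with a 95% interval of 4.41 to 5.15 from the exact binomial order statistics. The comparison set was the other 3614 inner peaks, meaning peaks with a neighbour on each side and a width under 1500 bp, and their median fold was 4.70 (4.61 to 4.79). The log2 ratio of the medians was 0.02 (-0.09 to 0.13, from the interval of the isolated median alone). Folds between 3 and 4 made up 37.0% of isolated peaks and 35.8% of the others. The lowest fold in the whole list was 3.00, so both medians lie near the bottom of the listed range. All intervals treat peaks as independent and describe the list, not the animals. Differences between sets of peaks were not tested, since the peaks of 1 list are not replicates.

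A larger share of the isolated peaks than of the others was strong, a difference given as a description. A fold of 10 or more was listed for 18.8% of all 5033 peaks, and 80 isolated peaks (22.8%, Wilson 95% interval 18.7 to 27.5%) reached it, against 629 (17.4%, 16.2 to 18.7%) of the other inner peaks. A fold of 20 or more was listed for 7.07% of all peaks, for 37 isolated peaks (10.5%, 7.74 to 14.2%) and for 233 of the others (6.45%, 5.69 to 7.30%). A fold of 30 or more was listed for 3.54% of all peaks, for 23 isolated peaks (6.55%, 4.41 to 9.64%) and for 110 others (3.04%, 2.53 to 3.66%). The 90th percentile of fold was 21.6 in the isolated set and 14.8 in the others. The intervals for a fold of 10 met near 18.7%, and those for 20 and for 30 stood just apart. This holds against the pooled others, most of which had no gap over 50 kb.

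**Figure D1:**
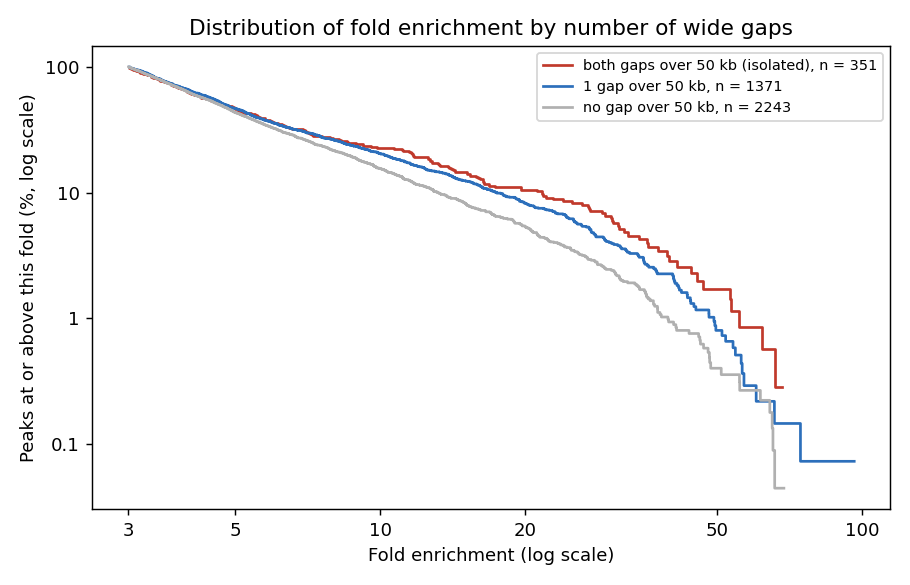
Percentage of peaks (vertical, log scale) at or above each fold enrichment (horizontal, log scale) for inner peaks under 1500 bp with both gaps, 1 gap or no gap over 50 kb. The 3 curves run together near a fold of 3 and spread above 10, where 22.8%, 20.4% and 15.6% of the sets remain.

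Peaks with a wide gap on 1 side lay between in their share of strong peaks. Of 1371 such peaks, 20.4% (18.4 to 22.6%) had a fold of 10 or more, and of the 2243 with no gap over 50 kb, 15.6% (14.1 to 17.1%) did. A fold of 20 or more was listed for 8.24% (6.90 to 9.82%) of the 1371, and a fold of 30 or more for 4.01% (3.09 to 5.19%). Both intervals overlap those of the isolated peaks. The median folds of these sets were 4.79 and 4.64, against 4.76 for the isolated peaks, so the medians did not follow that order. The outermost peaks of a scaffold, which the rule leaves out, had a lower share of strong peaks than the members. Of 212 such peaks under 1500 bp with their single gap over 50 kb, 29 (13.7%) reached a fold of 10. Their median fold was 4.40. No interval is given for these values, and the difference was not tested. Such a peak may have an unseen neighbour on a sequence that joins the scaffold's end, so its isolation is known on 1 side.

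The strength of a peak did not follow the size of the gap step by step. With the nearest neighbour 25 to 50 kb away, just short of the limit, 22.3% of 471 peaks had a fold of 10 or more. Just past it, at 50 to 75 kb, the share was 18.1% of 166, at 75 to 100 kb 31.9% of 69, at 100 to 200 kb 23.9% of 88, and above 200 kb 25.0% of 28. Below 25 kb the 4 bands lay between 15.3% and 18.1%. A fold of 20 or more was listed for 9.34% at 25 to 50 kb and for 7.83% at 50 to 75 kb. The share was 10.1% at 75 to 100 kb, 14.8% at 100 to 200 kb and 14.3% above 200 kb. The higher share of strong peaks was therefore not confined to gaps over 50 kb, and the median fold of the bands ran from 4.42 to 6.07 with no order. Among the 351 members the rank correlation of fold with the nearer gap was -0.03, and with the farther gap -0.14. These correlations are descriptions across peaks of 1 list, and neighbouring members share a gap.

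**Figure D2:**
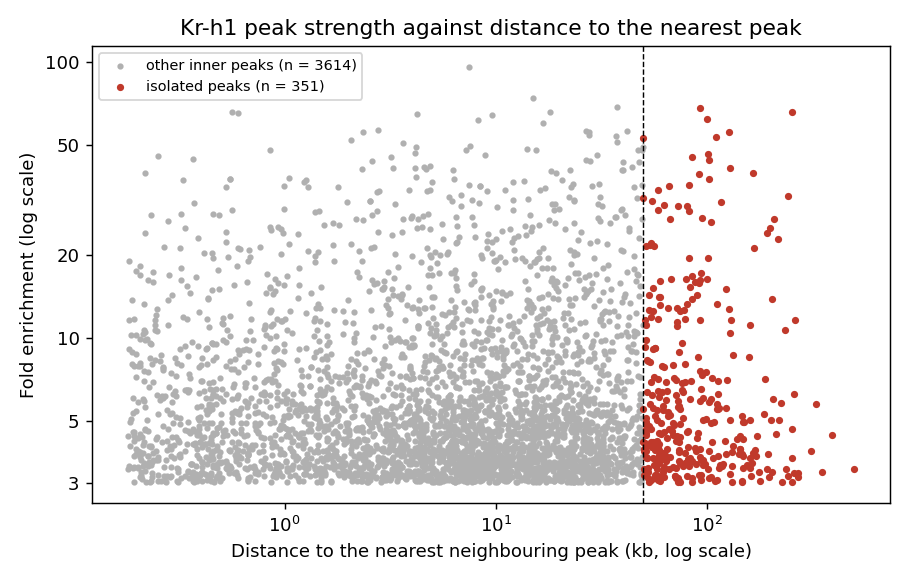
Fold enrichment of each inner peak under 1500 bp (vertical, log scale) against the distance to its nearest neighbouring peak (horizontal, kb, log scale), with the 50-kb limit as a dashed line. Isolated peaks in red cover the same range of fold from 3.01 to 68.0 on the right of the line as most other peaks on its left, whose highest fold is 96.2.

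The 15 strongest isolated peaks had folds from 35.7 to 68.0 and lay on 13 scaffolds. The strongest, at 1259959 to 1260705 of scaffold128, was 746 bp wide with a fold of 68.0, and its nearer neighbour was 93004 bp away. The next was at 1394418 to 1395268 of scaffold58, 850 bp wide with a fold of 65.8. It had the largest nearer gap of the 15, with 312549 bp before it and 254432 bp after it. On scaffold374 a peak of fold 62.0 ran from 376136 to 376898, between neighbours of fold 4.67 and 6.56. These members also belong to the 15 strongest peaks of the whole list. Of the 34 listed peaks with a fold of 50 or more, 6 were isolated, where members made up 6.97% of all 5033 peaks.

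The other members above 50 lay on scaffold789 from 1176464 to 1177262 (fold 55.6), on scaffold148 from 173137 to 174023 (fold 53.4) and on scaffold139 from 665139 to 665924 (fold 53.0). The scaffold139 peak only just met the rule, with a nearer gap of 50084 bp, and that neighbour had a fold of 32.4. On scaffold192 a peak from 397237 to 398058 had a fold of 46.6. On scaffold187 a peak from 173553 to 174339 had a fold of 45.3, and no further peak was listed for 884315 bp after it, the widest gap beside any member. The peak on scaffold31 from 641281 to 642087, with a fold of 41.2, stood almost midway between weak neighbours of fold 3.44 and 4.67, with gaps of 131870 and 129476 bp.

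Scaffold208 held a pair of the 15 next to each other, from 384974 to 385872 with a fold of 37.8 and from 488811 to 489623 with a fold of 44.0, with 102939 bp between them. Scaffold789 held another member of the 15 from 881294 to 882081, with a fold of 39.6. The remaining members lay on scaffold91 from 1617631 to 1618230, scaffold393 from 703893 to 704516 and scaffold25 from 2438960 to 2439811, with folds of 39.2, 35.9 and 35.7. Of the 15, 14 had a higher fold than both neighbours and 10 had at least 2 times the fold of the stronger neighbour. These counts follow largely from picking the 15 by their high fold. Over all members, 32.2% had a higher fold than both neighbours, against 32.1% of the other inner peaks. Of the 15, 6 had no neighbour with a fold of 10 or more.

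The 15 strongest isolated peaks measured 599 to 898 bp, and 13 of them measured between 700 and 1000 bp. That range depends on stopping at 15: the 23 isolated peaks with a fold of 30 or more measured 599 to 1317 bp, and the 110 other inner peaks of that strength 594 to 1487 bp. Of the 37 isolated peaks with a fold of 20 or more, 62.2% lay between 700 and 1000 bp, with a median width of 812 bp and a middle range (25th to 75th percentile) of 746 to 898 bp. Of the 233 other inner peaks of that strength, 44.6% did, with a median of 841 bp and a middle range of 712 to 1071 bp. The 130 isolated peaks with a fold under 4 had a median width of 491 bp and ran from 242 to 1375 bp. Width and fold come from the same peak call. Their rank correlation was 0.41 across the 351 isolated peaks and 0.34 across the 3614 others, as a description.

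**Figure D3:**
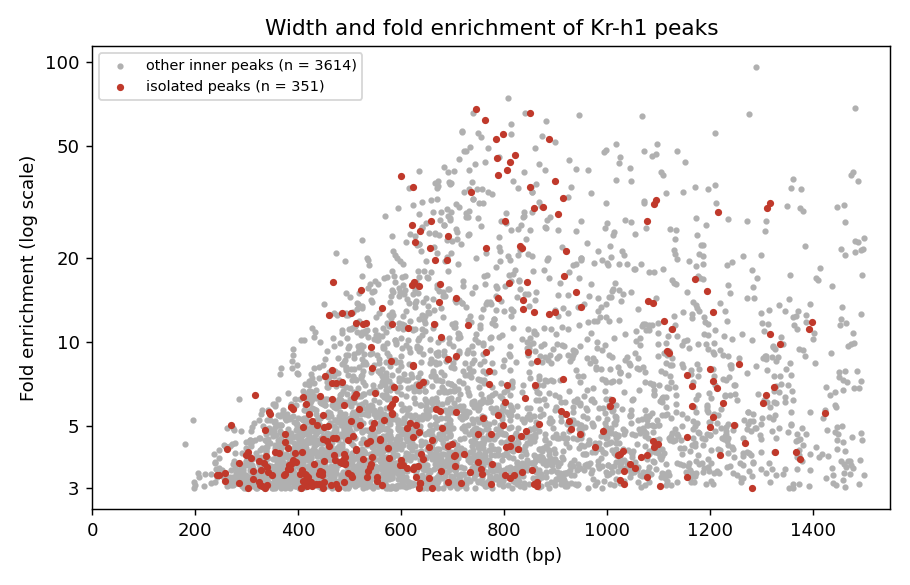
Fold enrichment (vertical, log scale) against peak width in bp (horizontal) for isolated peaks in red and other inner peaks under 1500 bp in grey. At a fold of 30 or more, isolated peaks extend from 599 to 1317 bp and other inner peaks from 594 to 1487 bp, with median widths of 821 and 861 bp.

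Set against other peaks of like width, isolated peaks differed most in 1 band. Among peaks of 700 to under 1000 bp, 36 of 86 isolated peaks (41.9%, Wilson interval 32.0 to 52.4%) had a fold of 10 or more, against 223 of 942 others (23.7%, 21.1 to 26.5%), and the median folds were 7.06 (5.21 to 12.8) and 5.21 (4.94 to 5.49). A fold of 20 or more was listed for 26.7% and 11.0% of these peaks. Among peaks of 500 to under 700 bp the shares with a fold of 10 or more were 25.8% of 97 and 19.0% of 1020, with overlapping intervals. From 1000 to under 1500 bp they were 27.1% of 59 and 27.2% of 705. Under 500 bp few peaks were strong in either set, 3 of 109 isolated peaks and 20 of 947 others. The band limits were chosen after the list had been seen, and the difference was not tested.

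**Figure D4:**
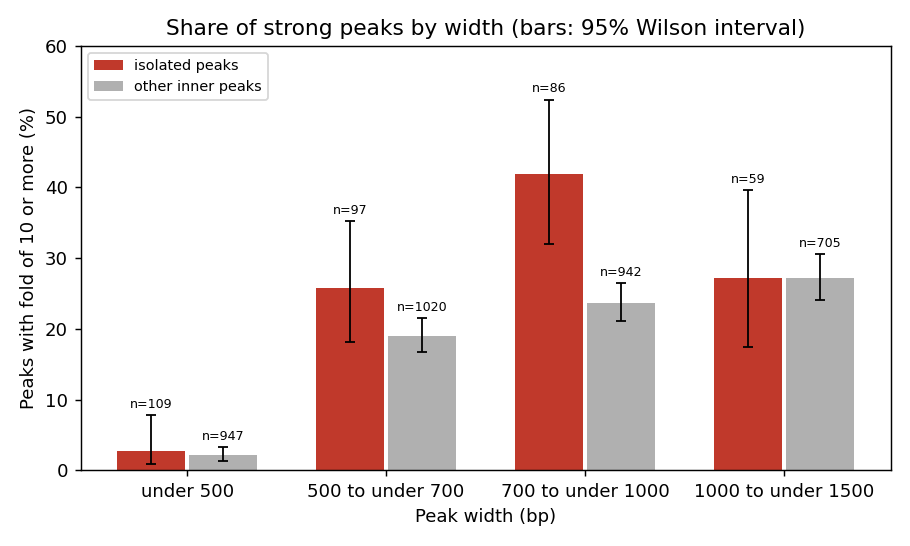
Percentage of peaks with a fold of 10 or more (vertical) in 4 bands of width (horizontal, bp) for isolated and other inner peaks, with 95% Wilson intervals as error bars and the number of peaks above each bar. The bars differ most at 700 to under 1000 bp, at 41.9% against 23.7%, and are level at 1000 to under 1500 bp.

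Few peaks far from their neighbours were wide. Before the width limit was applied, 360 inner peaks had both gaps over 50 kb, and 9 of them (2.50%, Wilson interval 1.32 to 4.68%) were 1500 bp or wider and so left out. Of the other 3941 inner peaks, 327 (8.30%, 7.48 to 9.20%) were that wide. The 9 had widths of 1713 to 3219 bp and folds of 3.28 to 52.6, and 4 of them had a fold of 20 or more. The highest, on scaffold171 from 1698213 to 1700347, was 2134 bp wide. Under the limit, isolated peaks had a median width of 634 bp (600 to 673 bp) and the other inner peaks 667 bp (655 to 680 bp), a comparison that the limit itself bounds.

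Of the 10 members with the largest gap to the nearer neighbour, 6 had a fold under 4 and 1 reached a fold of 10, where 37.0% and 22.8% of all members did. The low share of strong peaks did not extend to the wider set of 28 members with a nearer gap over 200 kb. Of these, 25.0% reached a fold of 10 and 14.3% a fold of 20. A fold under 4 was listed for 12 of the 28 (42.9%), and their median was 4.58. The first of the 10 was on scaffold562 from 617748 to 617990, with gaps of 500955 and 700399 bp. At 242 bp it was also the narrowest member, and its fold was 3.34. Next came scaffold25 from 1200128 to 1200686 (fold 4.46, nearer gap 391363 bp), scaffold462 from 648656 to 649160 (fold 3.28, 353105 bp) and scaffold219 from 1785443 to 1785962 (fold 5.76, 328526 bp). The gaps on either side of the scaffold219 peak were nearly equal, at 328526 and 329733 bp. Scaffold41 from 652799 to 653865 had a fold of 3.89 and a nearer gap of 312182 bp.

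Among the next was a weak peak on scaffold91 from 1345213 to 1346025, with a fold of 3.25. Its neighbours, 741614 bp before it and 271606 bp after it, had folds of 19.3 and 39.2, and the latter is among the 15 strongest members. Peaks on scaffold295 from 397438 to 397723, scaffold184 from 823437 to 824277 and scaffold96 from 587804 to 588457 had folds of 3.13, 6.30 and 3.25. The strong exception of the 10 was on scaffold467 from 480787 to 481370, 583 bp wide with a fold of 11.6 and gaps of 261367 and 383896 bp.

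At the lower end, 7 members shared the lowest fold, equal to all 5 deposited decimals and printed here as 3.01, and 8 members in all round to that value. Of the 7, the 5 that come first by scaffold name were on scaffold173 from 173746 to 175027, scaffold176 from 1200239 to 1200574, scaffold37 from 637791 to 638269, scaffold56 from 1794171 to 1794831 and scaffold58 from 1649700 to 1650106. Their widths ran from 335 to 1281 bp. The scaffold58 peak is the direct neighbour of the member of fold 65.8, with 254432 bp between them, so the extremes of strength adjoined each other on that scaffold. The scaffold173 peak likewise preceded a peak of fold 52.0, 115284 bp away.

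Members ranked against their own neighbours much as other peaks did. Of the 351 members, 113 (32.2%, 27.5 to 37.3%) had a higher fold than both neighbours and 112 (31.9%) a lower fold than both. Among the other inner peaks, 32.1% were higher and 33.7% lower than both. At least 2 times the fold of the stronger neighbour was reached by 45 members (12.8%) and by 9.88% of the others. Of the neighbours of the 80 members with a fold of 10 or more, 48 of 160 (30%) were themselves that strong, against 107 of 542 (19.7%) neighbours of the weaker members. For the other inner peaks these shares were 26.5% and 17.2%. Neighbours here are counted once for each member they adjoin. The rank correlation of a member's fold with that of its nearer neighbour was 0.10 over 351 peaks, as a description.

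Adjacent members share a gap that the rule used, so their runs are a description of the spacing. Of the 1722 inner peaks under 1500 bp with at least 1 gap over 50 kb, 351 (20.4%) were members. No adjacent peak was a member for 153 of them, 1 was for 162 and both were for 36. Unbroken runs of members numbered 58 of length 2, 15 of length 3, 4 of length 4 and 3 of length 5. The peaks that flanked members without being members themselves numbered 466, of which 64 were the outermost of their scaffold. Of the 466, 124 (26.6%) had a peak within 5 kb, against 37.3% of the whole list, a share that the wide gap on 1 side lowers by construction.

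The longest run was on scaffold789, where 6 consecutive members lay within 1261 kb. Its members had folds of 3.98, 21.2, 39.6, 12.8, 55.6 and 5.06 in order of position, and the gaps between them ran from 128328 to 556286 bp. The inner 4 measured 787 to 920 bp, and the weak peaks at the ends measured 722 and 269 bp. Those 4 reached a fold of 10, while the 3 remaining peaks of the scaffold had folds of 3.40 to 5.97. Scaffold128 also held 4 members with a fold of 10 or more. They had folds of 27.1, 11.6, 68.0 and 11.6, and the fifth member there had a fold of 4.41.

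**Figure D5:**
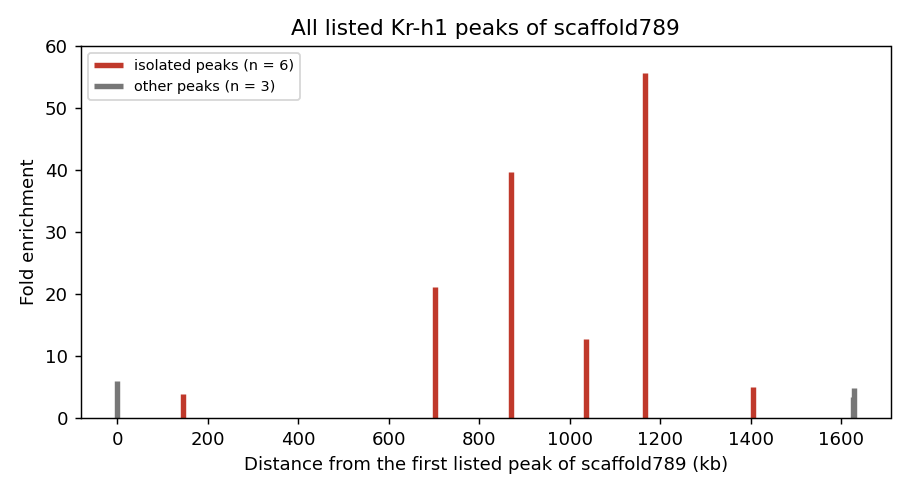
Fold enrichment (vertical) of every listed peak of scaffold789 against distance from its first listed peak (horizontal, kb), with isolated peaks in red and others in grey. The 4 inner members of the run stand at folds of 12.8 to 55.6 and the 3 other peaks at 3.40 to 5.97; the last 2 grey lines lie 466 bp apart and nearly merge.

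Scaffolds with members held from 1 to 7 of them. Of the 149 scaffolds, 55 held 1 member, 36 held 2, 27 held 3, 19 held 4 and 7 held 5. Scaffold202 and scaffold694 held most, with 7 each. On scaffold202 no member reached a fold of 10 and folds ran from 3.34 to 7.20, with 38 peaks listed in all. On scaffold694 they ran from 3.37 to 31.1, with 2 at or above 10. Scaffold789, scaffold176 and scaffold295 held 6 each, with median folds of 17.0, 4.35 and 4.85. These make up 66.7%, 20.7% and 17.1% of the peaks on their scaffolds. The 80 strong members lay on 60 scaffolds, 45 of which held a single one.

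Within scaffolds the members' median fold was higher about as often as lower. On the 147 scaffolds that held members and other inner peaks, the members' median fold was the higher on 77 and the lower on 70. The 2467 other inner peaks of the scaffolds with members had a median fold of 4.70, and 17.3% of them reached a fold of 10. On scaffolds without a member that share was 17.6% of 1147. The share of strong peaks among the non-isolated was thus nearly the same whether or not their scaffold held an isolated peak.

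Peaks near the limits of the rule were varied. The members with the smallest gaps were the scaffold139 peak (50084 bp) and a pair on scaffold132, from 600160 to 600506 and from 650708 to 651803, that lay 50202 bp apart and had folds of 5.54 and 32.1. Just outside were peaks on scaffold555 from 280036 to 280805, scaffold87 from 342611 to 343226 and scaffold111 from 944652 to 944950, with nearer gaps of 49957, 49922 and 49625 bp and folds of 49.4, 11.2 and 3.21. The scaffold555 peak would have been among the 15 strongest members. The widest members measured 1423, 1398 and 1392 bp, on scaffold38, scaffold54 and scaffold13, with folds of 5.57, 11.8 and 11.1. The narrowest peaks left out for their width measured 1713, 1792 and 1830 bp, on scaffold33, scaffold539 and scaffold285, with folds of 8.23, 3.37 and 6.99.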

How the data were processed

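The deposited file is a single peak list, and per the file headers it gives each peak's scaffold, its start and end, and the authors' fold enrichment (a linear ratio over background). MACS2 2.1.1.20160309 and Bowtie2 2.2.6 are listed by the submitters' processing notes, along with SAMtools, Trimmomatic and bcl2fastq. The sources used here do not give settings, genome build, peak threshold, duplicate handling, pooling or whether starts count from 0. Per the labels' protocols, libraries had 13 PCR cycles for ChIP and 5 for input.

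Peaks were sorted by scaffold and start. Width is end minus start, and a gap is the later start minus the earlier end. Python 3.11.15, pandas 2.3.3, numpy 2.4.6 and scipy 1.17.1 were used. Medians have exact binomial order-statistic intervals and shares Wilson intervals, both 95%, for the number of peaks only. The selection and intervals were tested on simulated data. Named peaks were the 15 strongest, 10 most isolated and 5 weakest members, the 3 on each side of each limit, the 5 scaffolds with most members and the longest run; others were chosen after their values were seen. The members and lists were chosen with earlier results of these data known. Genes and sequences were not used here.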

Additional observations from a re-analysis of the deposited data

How the results depend on the processing

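No paired analysis was possible because the list has no columns of samples, and for the same reason no replicate could be left out and depth limits are unknown. The number of isolated peaks was 822 with gaps over 25 kb and 116 with gaps over 100 kb, 563 with outermost peaks kept, and 209 on scaffolds with 20 or more peaks. The median nearer gap was 45159 bp and 147100 bp with the first 2 of these, and 85480 bp with outermost peaks kept. Counting only peaks at or above the list's median fold as peaks gave 361 members with a median fold of 8.20, 42.7% at a fold of 10 or more, a median width of 738 bp and a median nearer gap of 92051 bp, a set raised by its own construction. A width limit of 1000 bp moved the median width to 577.5 bp. The log2 ratio of median folds stayed between -0.07 and 0.13 in 11 alternatives, of which others from the same scaffolds, and the limits of the width bands, were chosen after seeing the data. The share stronger than both neighbours was not computed with outermost peaks kept, which have 1 neighbour. Apart from the list cut at its median, the share with a fold of 10 or more ran from 19.4% (outermost peaks kept) to 24.1% (gaps over 100 kb). The 19.4% had a Wilson interval of 16.3 to 22.8% and lay near the 18.8% of all listed peaks. The matching share of the other peaks is not given for each setting. The range therefore does not show how far the difference from other peaks held.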
